A study of Drosophila melanogaster with 12 samples.

Results

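The 4 peak lists made with an antibody against dBigH1 in S2 cells were compared between control and induced cells in how their peaks were spaced, how wide and how high in score they were, and how far replicates agreed once lists had the same length. They are 4 of the 12 samples of the series, 2 replicates per condition, and hold 1752 peaks in all. S2 is an established line of the fruit fly Drosophila melanogaster derived from late embryos. Control cells are labelled wt. Induced cells are labelled wt BigH1 with a 1 mM induction. The treatment protocol gives copper sulphate for 24 h in the same words for every sample, so whether control cells received copper cannot be told from it. The growth protocol names lines that carry FLAG-tagged dBigH1, full length or lacking the DE stretch, kept in hygromycin B. The promoter of the induced gene, its expression level and the number of clones are not given in the sources used here, and no dBigH1 level was measured in these lists. Replicates carry only a number, so the spread between them may be technical.

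Linker histones bind the nucleosome where DNA enters and leaves it and help chromatin to compact. In the fly, dBigH1 takes this place in the early embryo, before transcription of the zygotic genome is established, and in the germline, whereas somatic cells use H1. Chromatin immunoprecipitation followed by sequencing (ChIP-seq) recovers the DNA bound by a protein, and a peak caller lists stretches where it is locally enriched. A protein spread evenly along a chromosome therefore leaves few peaks, and a peak in control cells is a place where the antibody gave enrichment, which is not by itself evidence of dBigH1 there.

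Each list gives the position of every peak on genome build dm3 and a score. The score is the authors' own value, written by the peak caller, and no list holds one under 50. The first control list held 599 peaks and the second 719, and the induced lists held 196 and 238. On the 5 large arms (2L, 2R, 3L, 3R and X) there were 553, 669, 193 and 236. Read numbers are not in the lists, so the depth behind a peak is unknown, and a longer list can come from deeper sequencing as well as from more enrichment. For this reason most comparisons below were made on lists cut to their highest-scoring peaks, 196 in each list over all scaffolds or 193 on the 5 arms. At that length the lowest score kept was 127 and 124 in the control lists and 50 and 54.9 in the induced lists, so the same number of peaks reaches much further down in score in induced cells. With 2 libraries against 2, an exact two-sided permutation test cannot give a p below 0.333, so no comparison here could pass 0.05, and separation of the libraries is reported with its size.

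At equal list length the peaks kept sat closer together in induced than in control lists. The gap was taken from the edge of a peak to the edge of its nearest neighbour in the same list. At equal length the median gap was 188 and 184 kb in the control lists and 45.2 and 19.3 kb in the induced lists. Both induced values lay below both control values, by 6.30-fold on average (log2 difference -2.66, exact permutation p = 0.333, the smallest possible). The control replicates nearly coincided while the induced replicates differed from each other, and without the second induced library the log2 difference was -2.04, against -3.27 without the first. A neighbour within 20 kb was present for 11.4% and 9.33% of control peaks and for 36.3% and 50.8% of induced peaks. Even within 5 kb the shares were 6.22% in each control list, 14.5% in the first induced list and 30.1% in the second. The cut leaves out lower-scoring neighbours, most of all in the longer control lists. Each full list on the 5 arms was also divided by score into 4 groups of equal size. With gaps measured to any peak of the full list, the highest group had medians of 46.5 and 57.2 kb in control. In induced cells these were 19.6 and 8.78 kb.

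In the full lists the libraries of the conditions overlapped. The median gap was then 47.5 and 33.0 kb in control and 45.2 and 20.5 kb in induced cells (log2 difference -0.38, exact permutation p = 0.667). On 2L and 3L alone the full lists separated, with a log2 difference of -0.76 (exact permutation p = 0.333). On 3L the full-list median gap was 84.3 and 52 kb in control and 35.9 and 11.4 kb in induced cells. The far end of the distribution depended on list length. Gaps at the 90th percentile were 252 and 220 kb in the full control lists and 470 and 354 kb in the full, shorter induced lists. At equal length the order turned, with 718 and 562 kb in control and 470 and 370 kb in induced cells. The longest stretch of an arm without a peak was 1.73 and 1.5 Mb in the full control lists and 6.35 and 7.33 Mb in the full induced lists. In both full induced lists that stretch lay on 2L, from 1558636 to 7906331 and from 1549986 to 8880809. At equal length the longest stretch was 3.29 and 3.22 Mb in control and 6.35 and 7.72 Mb in induced cells.

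**Figure D1:**
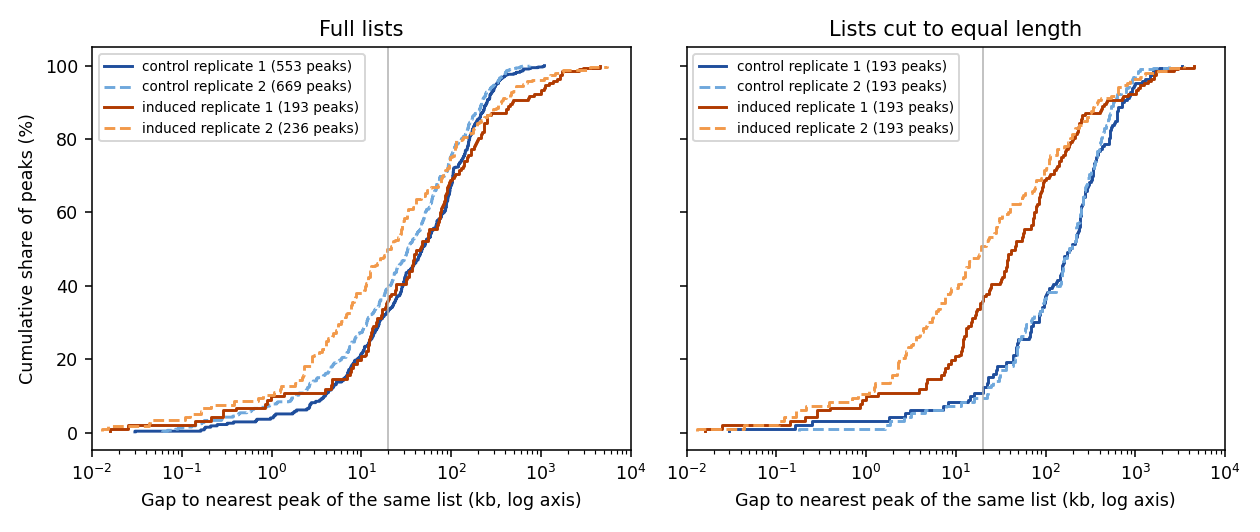
Cumulative share of peaks (vertical axis, %) by the gap to the nearest peak of the same list on the 5 large arms (horizontal axis, kb, log scale), 1 line per library, for full lists (left) and lists cut to 193 peaks (right); the grey line marks 20 kb. On the left the second induced line lies above the others at short gaps (50% within 20 kb against 33.5%, 39.3% and 36.3%), and on the right both induced lines lie left of both control lines at the median (45.2 and 19.3 kb against 188 and 184 kb).

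How the lists were cut changed the size of this contrast and not its direction. Taking peaks at evenly spaced score ranks, which keeps the score spectrum of each list, gave median gaps of 159 and 146 kb in control and 45.2 and 27.9 kb in induced cells. Taking instead the 193 lowest-scoring peaks, a choice made after seeing the data, gave 104 and 105 kb in control against 45.2 and 28.3 kb in induced cells, a log2 difference of -1.55. Among the 193 peaks kept, low-scoring control peaks thus stood closer together than high-scoring ones, but farther apart than induced peaks. Cutting takes more neighbours from the longer control lists than from the induced lists. Measured within the full lists, the lowest of the 4 score groups had median gaps of 40.1 and 24.7 kb in control. In induced cells these were 69.4 and 32.4 kb, so there the conditions overlapped.

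Peaks that followed each other with gaps of 20 kb or less were joined into chains, and chains of 3 or more peaks were counted as clusters. At equal length the first control list held 2 such chains with 6 peaks, and the second held none. The first induced list held 9 chains with 34 peaks and the second 10 chains with 52 peaks. The clustered share was thus 3.11% and 0% in control and 17.6% and 26.9% in induced cells, or 1.55% ± 2.20 and 22.3% ± 6.59 (mean ± SD, n = 2; exact permutation p = 0.333). The difference of 20.7 percentage points fell to 12.4 with the lowest-scoring peaks, and to 9.92 without the 5 windows of 1 Mb that held most induced peaks. At a score of 100 or more the lists held 264 and 266 control peaks and 20 and 38 induced peaks over all scaffolds. When each list was then cut to its 20 highest-scoring peaks the difference was 0, since no list then had a chain. In the full lists the clustered share was 13.9% and 18.1% in control and 17.6% and 28.0% in induced cells, and the libraries overlapped (exact permutation p = 0.667).

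In the full lists, the chains with most peaks lay on 2L in both induced libraries. In the second induced list they were 2L 15980667 to 16081412 with 10 peaks, 2L 16115491 to 16218558 with 10 peaks and 2L 15556909 to 15609585 with 5 peaks. The first of these was 39.9% covered by its peaks, at a median gap of 3.18 kb. The first induced list had 4 peaks in that stretch, the first control list 2 and the second control list 11. The first induced list was led by 2L 15543216 to 15608641 and 2L 15199324 to 15246535 with 5 peaks each, followed by 2L 18275364 to 18309323 with 4. Chain 2L 15543216 to 15608641 held 5 peaks of each induced library, 1 of the first control and 2 of the second control library. The longest chain of all, 13 peaks over 108 kb from 2L 15978734 to 16086321, belonged to the second control list, with scores of only 50.4 to 109. It covered nearly the same stretch as the leading chain of the second induced list. The leading chain of the first control list was on X, 3253889 to 3328322, with 9 peaks. The second control library had 5 peaks there and both induced libraries had 0.

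Arms differed in how closely induced peaks were packed. On 2L at equal length the median gap was 213 and 154 kb in control and 20 and 11.6 kb in induced cells. On 3L it was 315 and 242 kb in control and 35.9 and 14.2 kb in induced cells. 3R showed a smaller contrast, with 241 and 184 kb in control and 166 and 93.9 kb in induced cells, although it held a like number of peaks in the 4 lists (41, 43, 39 and 36). 2R ran the other way, with 123 and 264 kb in control and 1638 and 296 kb in induced cells, where each list kept only 8 peaks, none with a neighbour within 20 kb. X held 54 and 52 of the control peaks and 2 and 3 of the induced peaks, too few for a gap to be read. All induced peaks of X lay between 3 and 4 Mb. Whether the contrast differed between arms was not tested.

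At the scale of 1 Mb, induced peaks were concentrated in few windows. Of 120 windows on the 5 arms, the fullest 12 of each list held 30.1% and 29.0% of the control peaks and 54.9% and 59.6% of the induced peaks at equal length. Control libraries averaged 29.5% ± 0.733 and induced libraries 57.3% ± 3.30 (SD, n = 2; exact permutation p = 0.333). The difference of 27.7 percentage points was 15.8 with the lowest-scoring peaks, 15.3 without the 5 fullest induced windows and 15 with the 20 highest-scoring peaks of each list. Windows without a peak numbered 26 and 25 in control and 64 and 70 in induced cells. The variance of the window counts divided by their mean, which is near 1 for peaks placed independently and evenly, was 1.37 and 1.23 in control and 5.27 and 7.18 in induced cells.

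The windows with most induced peaks at equal length were 15 to 16 Mb of 2L, with 15 and 20 induced peaks against 2 and 2 control peaks, and 5 to 6 Mb of 3L, with 15 and 17 against 1 and 0. Next came 16 to 17 Mb of 2L, 3 to 4 Mb of 3L and 14 to 15 Mb of 2L. The control lists were led by 3 to 4 Mb of X, with 8 and 7 control peaks against 2 and 3 induced peaks, followed by 12 to 13 Mb of 3R and 13 to 14 Mb of X, each with 7 and 6 control peaks and no induced peak. Of 112 windows that held a peak in any list at equal length, 19 (17%) had more peaks in each induced list than in either control list, and 49 (43.8%) had the reverse. The 19 windows held 65.3% and 68.9% of the induced peaks and 8.81% and 9.33% of the control peaks. The 49 held 64.2% and 63.2% of the control peaks and 3.11% of the induced peaks in each list. The windows were picked by these same counts, so the direction of these shares follows from the choice. Of the 19, 9 lay on 3L, 7 on 2L and 3 on 3R, and of the 49, 20 lay on X. In the full lists only 4 of 120 windows (3.33%) had more peaks in each induced list, all on 3L, whereas 85 (70.8%) had more in each control list. The leading induced windows of 2L were not among the 4. At 15 to 16 Mb the control lists held 13 and 29 peaks, against 15 and 22 in the induced lists. At 16 to 17 Mb they held 12 and 30, against 8 and 23, and at 14 to 15 Mb 11 and 17, against 12 and 6. The second control list was thus rich in peaks there, and in the latter windows the first also exceeded the lower induced list.

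Induced peaks were broader from the low to the high end of the width spectrum. The median width was 1641 and 1559 bp in control and 2680 and 3026 bp in induced cells, a 1.78-fold difference (log2 difference 0.83, exact permutation p = 0.333). Widths at the 10th percentile were 1062 and 1007 bp in control and 1399 and 1563 bp in induced cells, and at the 90th percentile 4088 and 3506 bp against 5486 and 5928 bp. The greatest widths were closer, at 8472 and 10267 bp in control and 8553 and 9267 bp in induced cells. Widths under 1500 bp were seen for 43.1% and 47.7% of control peaks and for 12.2% and 9.66% of induced peaks. At 4000 bp or more lay 10.7% and 6.95% in control and 28.1% and 32.4% in induced cells. The largest vertical distance between the cumulative width curves of any pair of lists (Kolmogorov-Smirnov D, given as a description) was 0.0829 for the control replicates, 0.117 for the induced replicates and 0.362 to 0.436 for the 4 pairs across conditions.

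The difference was of like size at equal list length and within a common score range. At equal length the median was 1744 and 1609 bp in control and 2680 and 3250 bp in induced cells (log2 difference 0.82). Among peaks with a score under 100 it was 1608 and 1554 bp against 2606 and 2812 bp (log2 difference 0.78), again separated by condition at the smallest possible exact permutation p of 0.333. The contrast in width grew with the score. At scores of 50 to 60 the median was 1495 and 1496 bp in control and 2184 and 2191 bp in induced cells. From 100 to 200 it was 1632 and 1572 bp in control, over 164 and 167 peaks, and 4862 and 4897 bp in induced cells, over 19 and 37 peaks. Control peaks had about the same median width in every score range, from 1443 to 1776 bp. Across peaks within a list, width and score had a Spearman correlation of 0.0988 and 0.0880 in control and 0.388 and 0.449 in induced cells, given as a description, since the caller computes both from the same reads.

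**Figure D2:**
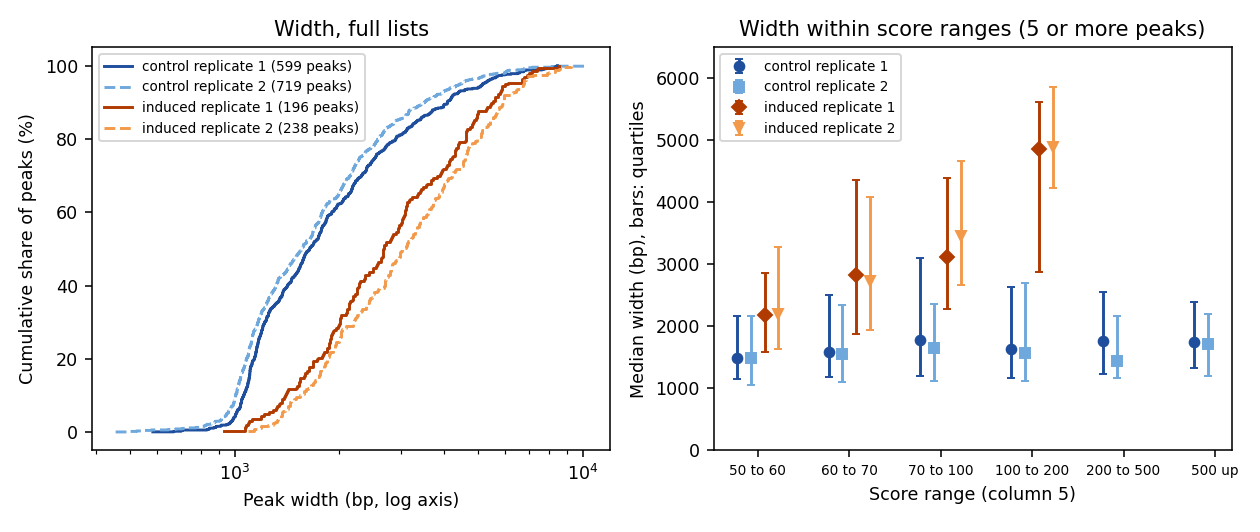
Left, cumulative share of peaks (%) by width (bp, log axis) for the 4 full lists; right, median width (bp) within ranges of the score, with bars from the lower to the upper quartile, for ranges with 5 or more peaks in a library. Both induced libraries lie right of both control libraries, and their medians climb from 2184 and 2191 bp at scores of 50 to 60 to 4862 and 4897 bp at 100 to 200, while control medians stay between 1443 and 1776 bp.

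Within each arm that could be read, induced peaks were broader than control peaks. On 2L the medians were 1832 and 1871 bp in control and 3110 and 3318 bp in induced cells, and on 3L 1916 and 1576 bp against 2883 and 3274 bp. On 3R they were 1608 and 1424 bp against 1901 and 2188 bp. Control peaks on X were the narrowest, with medians of 1179 and 1169 bp over 114 and 115 peaks, and the highest in median score among the arms, at 119 in each library. Width also went with clustering. In the full induced lists, peaks in chains of 3 or more had median widths of 4001 and 3957 bp, and lone peaks, with no neighbour within 20 kb, 2244 and 2513 bp. The same contrast was smaller in control cells, at 1931 and 1785 bp for chained and 1549 and 1443 bp for lone peaks. Chained induced peaks also had higher median scores than lone ones (79.2 against 64.0, and 80.7 against 63.2), whereas chained control peaks had lower ones (83.5 against 98.0, and 71.7 against 87.4).

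The widest peaks were not the highest in control lists. The widest peak of the second control list, X 19737631 to 19747897, was 10267 bp wide with a score of 50.1, rank 717 of 719. In the first control list it was 3L 5053794 to 5062265, 8472 bp wide, at rank 375. In the first induced list the second widest peak, 2L 16045695 to 16053148 with 7454 bp, was also the highest, with a score of 222. The nearest peak of the second induced list was 0.026 kb away, so this highest peak did not recur. The widest peak of the first induced list, 3L 5943330 to 5951882 with 8553 bp, overlapped the second widest of the other, 3L 5942437 to 5951061 with 8625 bp. The widest of the second induced list, 2L 14724576 to 14733842 with 9267 bp, had rank 6 and overlapped a peak of the first.

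Scores followed a steep curve in control and a flat one in induced cells. The median score was 92.0 and 82.0 in the full control lists and 64.6 and 68.7 in the full induced lists (log2 difference -0.38, exact permutation p = 0.333). At rank 10 the score was 1116 and 1114 in control and 123 and 139 in induced cells. It was 318 and 327 against 77.2 and 94.6 at rank 50, and 153 and 152 against 54.6 and 61.5 at rank 150. The control replicates thus differed little from each other over these ranks, whereas the second induced list was the higher of the induced pair at each. Scores of 200 or more were held by 100 and 99 control peaks and by 1 peak in each induced list. At equal length the median score was 205 and 204 in control and 64.6 and 75.1 in induced cells (log2 difference -1.55, exact permutation p = 0.333). This value depends on the way the lists are cut, since equal length keeps only the top of the longer control lists. It was -3.08 with the 20 highest-scoring peaks of each list and -0.38 at evenly spaced ranks. It turned to 0.18 when the lowest-scoring peaks were kept, which by construction takes the bottom of the longer control lists. The D between score curves of the full lists was 0.0828 for the control replicates, 0.143 for the induced replicates and 0.240 to 0.386 across conditions.

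**Figure D3:**
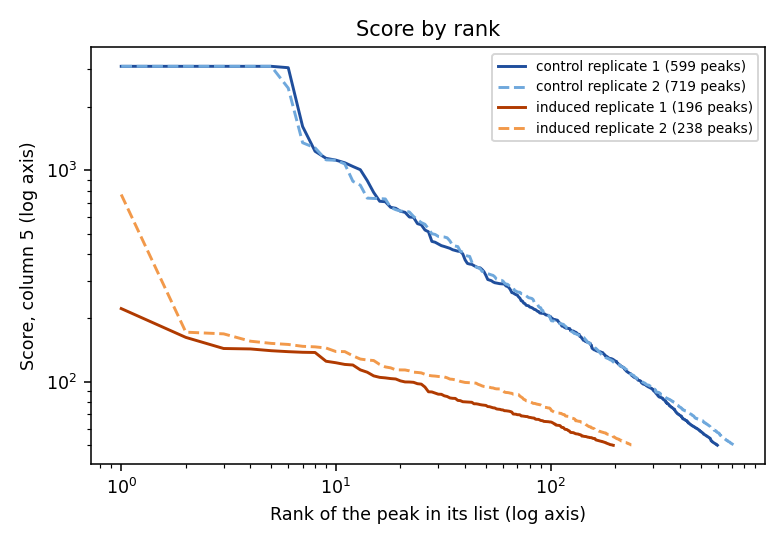
Score of each peak (column 5 of the lists, log axis) against its rank in its own list (log axis) for the 4 libraries. The control lines start at 3100, tied over 5 peaks in each list, and fall together through 1116 and 1114 at rank 10. The induced lines stay low and flat, with 123 and 139 at rank 10 after a single peak of 768 in the second induced list.

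The score of 768 in the second induced list belonged to 2R 9372851 to 9374296, 1446 bp wide, against 171 for the next peak of that list. The region it lies in, 2R 9372718 to 9374361, was the only one held by all 4 libraries at equal length. Its scores were 1609 and 3100 in control and 62.2 and 768 in induced cells. The score of 3100 was the highest in both control lists and was held by 5 peaks in each. The peaks of this region were 1636, 1624, 1425 and 1446 bp wide, so in induced cells it was narrower than most peaks. The 2 induced replicates differed more at this region than at any of the 5 leading regions that only they shared, where scores ranged from 97.8 to 143.

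At equal length, replicates shared most of their peaks in control and about 1 in 5 in induced cells. A peak was counted as shared when it overlapped a peak of the other list by 1 bp or more. Control replicates shared 128 of 196 peaks (65.3%, exact 95% binomial interval 58.2 to 71.9), and induced replicates 41 of 196 (20.9%, 15.4 to 27.3). Such intervals cover counting error only. Between conditions 1 to 3 of 196 peaks overlapped, depending on the pair (0.510 to 1.53%). Counting midpoints within 1 kb of each other, which leaves peak width out, gave 64.3% and 18.4% for the replicates and 0.510 to 1.02% between conditions. Control agreement was highest at the top of the lists, with 20 of the first 25 peaks and 40 of the first 50 shared. Induced agreement showed no such rise, with 4 of the first 25, 7 of the first 50 and 17 of the first 100. With the 20 highest-scoring peaks of each list the shares were 90% and 15%. The full lists kept the order of the conditions, with 60.8% and 50.6% of control peaks and 23.0% and 19.3% of induced peaks shared. In the lowest of 4 score groups on the 5 arms, 38.1% and 22.6% of control peaks overlapped the full list of the other replicate. For induced peaks these shares were 12.2% and 13.6%. The order turned under cuts that leave out most control peaks, and so partners of shared ones. With the 196 lowest-scoring peaks of each list the shares were 12.8% in control and 17.1% in induced cells, and at evenly spaced ranks, where partners of shared peaks are dropped, 13.8% and 19.6%. Overlap between conditions was higher among low-scoring peaks, at 5.18 to 6.74% of the 193 lowest-scoring peaks on the 5 arms. As each condition gives 1 pair of replicates, this difference has no test.

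Shared peaks also coincided more exactly in control cells. Over the 364 one-to-one pairs of the full control lists, midpoints were a median of 54 bp apart, and over the 44 pairs of the induced lists 398 bp apart. These paired peaks had median widths of 1570 and 1424.5 bp in control and 3180.5 and 3519 bp in induced cells. The scores of paired peaks had a Spearman correlation of 0.677 in control and 0.112 in induced cells. The part of width in the offset, and of the flatter induced scores in the correlation, was not tested. Among peaks that did not recur, induced ones were nearer to the other replicate at equal length. Of these induced peaks 29.6% and 39.9% lay within 20 kb of a peak of the other replicate, against 11.8% and 11.9% of the control peaks that did not recur. Among the non-recurring peaks, the median distance to the other replicate was 188 and 204 kb in control and 56.0 and 28.6 kb in induced cells. In the full lists the contrast was small, with 28.1% and 26.2% within 20 kb in control and 33.8% and 35.3% in induced cells.

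Agreement of the induced replicates rose with the size of the window in which peaks were counted. Peaks were counted in windows, counts were turned into shares of the list, and the smaller of the shares of each pair of lists was summed over windows, which gives 100% for identical distributions. In windows of 10 kb the induced replicates shared 24.4% of their distribution, in windows of 100 kb 47.7% and in windows of 1 Mb 73.1%. The control replicates shared 66.3%, 69.4% and 79.3% at the same sizes. Pairs across conditions rose from 0.518 to 3.11% at 10 kb to 27.5 to 33.2% at 1 Mb. Across the 120 windows of 1 Mb the counts of the induced replicates had a Pearson correlation of 0.86 and those of the control replicates 0.80, and the 4 pairs across conditions lay between -0.11 and -0.03. With the lowest-scoring peaks the pairs across conditions lay between 0.35 and 0.66. These correlations are descriptions over windows of the same chromosomes and are not tests.

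**Figure D4:**
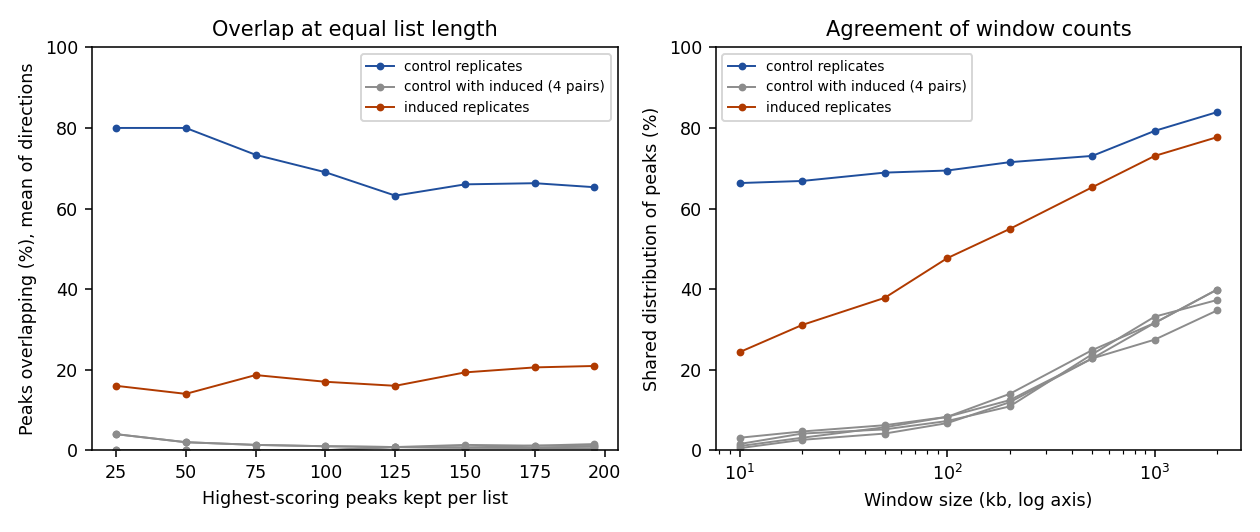
Left, peaks overlapping by 1 bp or more (%, mean of both directions) against the number of highest-scoring peaks kept per list; right, shared distribution of peaks (%) at 193 peaks per list against window size (kb, log axis); each line is a pair of libraries. The control replicates stay high throughout, and the induced replicates climb from 24.4% at 10 kb to 73.1% at 1 Mb while pairs across conditions stay at 33.2% or below at 1 Mb.

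Merging the 4 equal-length lists gave 610 regions. Both control libraries alone had 127 of them, with a median width of 1695 bp, and both induced libraries alone had 39, with a median width of 3999 bp. Replicate 1 of each condition shared 1 region with no other library, replicate 2 shared 2, and each crossed pair shared 0. By mean rank, the control regions were led by 3 regions of X with a score of 3100 in each control list. That was the highest score of both control lists and was tied over 5 peaks in each, so it may be an upper limit. Of these, the region from 2683524 to 2687731 and that from 2689529 to 2692769 are close neighbours, and the other spans 5788425 to 5796300. Next were 3R 21068868 to 21071196 and X 5589406 to 5591862. The nearest induced peak, even in the full lists, was 150 to 2302 kb away from these 5.

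The leading induced regions were nearer to control peaks. 2L 18275348 to 18282086 had scores of 143 and 114 in the induced lists and widths of 6679 and 6739 bp. It lay 4.72 kb from a peak of the first control list and overlapped a lower-scoring peak of the second that the equal length had removed. The same was true of 2L 16076386 to 16081412 (scores of 107 and 139), which lay 13.8 kb from the first control list and overlapped the second. 2L 16192178 to 16198104 was 11.8 and 1.65 kb from the control lists. The regions on 3L were farther, with 21.7 and 103 kb for 3L 3589910 to 3593908 and 152 and 49.6 kb for 3L 3004660 to 3009121.

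Low-scoring control peaks lay nearer to induced peaks than high-scoring ones did. Each list on the 5 arms was divided by score into 4 groups of equal size. In the highest group 5.80% (8 of 138) and 8.38% (14 of 167) of control peaks lay within 20 kb of a peak of either induced list. The shares were 12.3% and 17.4% in the next group, 21.7% and 33.5% in the third, and 23.0% (32 of 139) and 38.1% (64 of 168) in the lowest. Exact 95% intervals were 2.54 to 11.1% and 4.66 to 13.7% in the highest group and 16.3 to 30.9% and 30.7 to 45.9% in the lowest. X held 31.9% and 29.9% of the highest group and 12.9% and 8.93% of the lowest. With X left out the shares still rose from 8.51% and 12.0% to 25.6% and 41.8%. The arms 2L and 3L, which held most induced peaks, had 29.7% and 32.9% of the highest control group and 54.7% and 56.5% of the lowest. The part of this shift between arms was not tested.

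Induced lists ran the other way, with 72.9% and 69.5% of the highest group within 20 kb of a control peak and 53.1% and 40.7% of the lowest. In the first induced list the third group, at 41.7%, lay below the lowest. The control lists hold more peaks to be near to, and the part of this in the higher induced shares was not tested. Overlap itself was also rarest among high-scoring control peaks. In the highest group 2 and 3 control peaks overlapped an induced peak, in the third 11 and 20, and in the lowest 15 and 19. Of the highest group of induced peaks, 29.2% and 33.9% overlapped a control peak, and of the lowest 18.4% and 15.3%, with lower values between them, 8.33% in the second group of the first list and 10.2% in the third of the second.

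**Figure D5:**
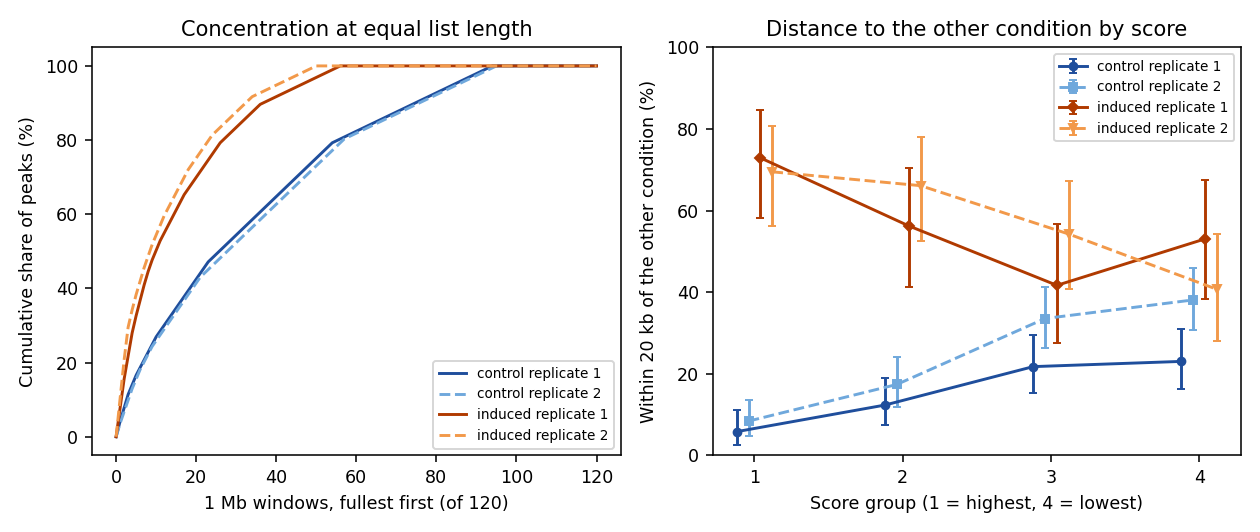
Left, cumulative share of peaks (%) over the 120 windows of 1 Mb, ordered from the fullest in each list, at 193 peaks per list; right, share of peaks (%) within 20 kb of a peak of the other condition for each of 4 score groups of a list, with exact 95% binomial intervals. The induced lines reach 54.9% and 59.6% after 12 windows against 30.1% and 29.0% for control, and in the right panel control shares climb from 5.80% and 8.38% to 23.0% and 38.1% toward low scores.

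Control peaks near induced ones differed from other control peaks in width and recurrence. Those that overlapped an induced peak had median widths of 2310 and 2549 bp, and those farther than 20 kb from any had 1605 and 1433 bp. The overlapping ones recurred in the other control list in 18 of 32 and 17 of 59 cases (56.2% and 28.8%), and the far ones in 65.9% and 61.1%. Among induced peaks, those overlapping a control peak were the widest, at 3883 and 3602 bp, against 2239 and 2796 bp for the far ones, and recurred more often, at 37.1% and 27.5% against 17.6% and 15%. A wider peak has more chance to overlap another, and its part in these shares was not tested. Overlapping control peaks also had lower median scores than far ones, at 65.3 and 71.7 against 98.8 and 93.0. Overlapping induced peaks had higher ones, at 64.8 and 78.9 against 60.6 and 61.7. The part of score in recurrence was not tested. The second control library carried more control peaks near induced ones than the first. Of its 669 peaks, 59 overlapped an induced peak and 104 more lay within 20 kb of one, against 32 and 55 of the 553 in the first. In the full lists its window counts correlated with those of the induced lists at 0.61 and 0.70, against 0.32 for each with the first control list, and with the 193 highest-scoring peaks of each list all 4 values were below 0. With the 193 lowest-scoring peaks they were 0.66 and 0.62 for the second control list and 0.42 and 0.35 for the first. The second control list was also the longer of the pair, and the part of depth in this was not tested.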

How the data were processed

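ChIP-seq libraries made with a polyclonal antibody against dBigH1 were analysed from 1 deposited peak list per library. Bowtie 0.12.5, MACS 1.4.2 and build dm3 are named in the submitters' processing notes. Their settings, and whether an input served as the caller's control, are not given in the sources used here. Each list gives a start, an end and a score for every peak. The deposited score was 50 or more in all lists. MACS of this version usually writes a scaled negative log10 of its p-value there, which no label states. It was used to rank and cut peaks within a list, and its spectrum was compared between lists, where it also depends on read depth. H1 lists and inputs were not used here, and no genome of this build was used, so no gene or sequence is named.

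Gaps, chains, windows, widths and overlaps were computed in SciPy 1.17.1 and NumPy 2.4.6 under Python 3.11.15, and drawn with Matplotlib 3.10.9. Quartiles and medians run over peaks, and peaks of 1 list are not replicates. The code was tested on simulated lists with planted chains and overlaps. Ties of score were broken by position, and no tie fell at the cut to equal length. Conditions were compared by exact two-sided permutation over libraries. Named regions were the 3 chains with most peaks, the 3 widest and the 3 highest peaks of each list, the 5 best-ranked equal-length regions of each condition with those in all 4 libraries, and the 5 fullest windows of each condition; some are given only in part. The comparisons, members and cut-offs were chosen with earlier results of these data known. The division into 4 score groups, the window sizes other than 500 kb, 1 Mb and 2 Mb, the classes by distance to the other condition the clustered share of the full lists and the cut to the lowest scores were chosen after seeing the data.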

Additional observations from a re-analysis of the deposited data

How the results depend on the processing

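No test of 2 libraries against 2 could pass 0.05, so only size and direction could change. Of 98 alternative values for the 9 tested comparisons, 95 kept their direction, 1 fell to 0 and 2 reversed. Many of the 95 could not have turned. Using the replicate number as a block leaves each difference as it was. Where the libraries separated fully by condition, leaving out any library cannot change the sign. The log2 difference of the median gap in full lists ranged from -0.95 to 0.19 with each library left out, turning positive without the second induced library, and was -0.76 on 2L and 3L alone. At equal length, lists limited to a score of 100 or more were also cut to their 20 highest-scoring peaks. The log2 difference of the median score at equal length was 0.18 with the lowest scores kept, by construction, and -3.08 with those 20 peaks. The difference in clustered share was 0 with the 20 highest-scoring peaks of each list. The log2 difference of the median gap at equal length stayed between -3.27 and -1.55, that of median width in full lists between 0.74 and 1.58 (the latter at a score of 100 or more), and the difference in window concentration between 15 and 32 percentage points. Control replicate overlap was 90% with the 20 highest-scoring peaks, 13.8% at evenly spaced ranks, where partners are dropped by construction, and 12.8% with the lowest scores. Induced replicate overlap was 15% with the 20 highest-scoring peaks. Regions of both control libraries only numbered 17 with the 20 highest-scoring peaks, 25 at evenly spaced ranks and 68 at 100 peaks a list. With each library left out they numbered 127 to 193. Those of both induced libraries only numbered 3, 33 and 17 at the same settings, and 39 to 194 with each library left out. Leaving out a library of the condition asks for 1 library in place of 2, so these counts rise by construction. Windows with more peaks in both control libraries numbered 27 at evenly spaced ranks, 85 in full lists and 51 to 56 with each library left out, and those with more in both induced libraries 16, 4 and 23 to 28. The region and window alternatives, the lowest scores and the removal of the 5 fullest induced windows were added after seeing the data. An overlap of replicates needs both, so none was left out there. At evenly spaced ranks and lowest scores the induced overlap (19.6% and 17.1%) lay above that of control. Where no construction is named, the cause was not tested.

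Replicate numbers are shared by the conditions, but only 2 pairs exist and no label ties a number to a batch, so they were not treated as pairs. Same-numbered libraries deviated from their group means with a correlation of 0.29 over windows in full lists and 0.14 at equal length. With the number as a block, the log2 differences of the gap (-0.38 full, -2.66 equal length), width (0.83, 0.82 and 0.78) and score (-0.38 and -1.55), and the differences of 20.7 and 27.7 percentage points, stayed as they were by construction, at an exact sign-flip p of 0.5.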
